A study of Mus musculus with 10 samples.

Results

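Semaphorins and their receptors, the plexins and neuropilins, were followed through gene-level RNA-seq of embryonic mouse cortex labelled as knockout or wild type for Emx2, a homeobox transcription factor of the dorsal telencephalon. Members were all protein-coding genes whose symbols belong to semaphorin classes 3 to 7, plexins A to D or the neuropilins. This gave 31 genes, 20 semaphorins and 11 receptors (9 plexins and 2 neuropilins), of 56748 gene identifiers in the count files and 21871 annotated as protein-coding. The rule for members used symbols only and no measured value, but it was set with earlier results of these data known. The 10 libraries were total RNA of cortex at stage E12.5, 5 labelled Emx2 KO and 5 labelled WT. The labels name no allele, deleted segment, strain, sex or pooling. Nothing in them ties a library to its own embryo, so p-values here measure only library-to-library spread, some of which may be technical.

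Total counts ran from 13794221 to 30902451 in the knockout libraries and from 9720840 to 35674113 in the wild-type libraries. They fell into a large and a small class, with knockout 1, 2 and 4 and wild type 3 and 4 large, and knockout 3 and 5 and wild type 1, 2 and 5 small. Libraries also carry 1 of 3 codes at the end of their titles, whose meaning the labels do not give, and within every code the 2 genotypes were of opposite size class. Code 14922 held all small knockout and all large wild-type libraries. A genotype effect that differs between size classes therefore cannot be told apart from a level particular to this code. The 7 dorsal telencephalic markers used for the tissue check (among them Emx1, Lhx2 and Pax6) were detected, with a summed level of 2106 to 2713 CPM (TMM-scaled counts relative to library size) in knockout and 1835 to 2208 CPM in wild type. Emx2 transcripts stood at 123 ± 21.1 CPM in knockout and 186 ± 12.8 CPM in wild type (SD, n = 5 each), lower in every knockout library than in any wild-type library but not absent. A gene-wide count cannot tell a deleted exon from the rest of the transcript.

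Semaphorins are guidance proteins that steer growing axons, migrating neurons and blood vessels, mostly by repulsion. Class 3 members are secreted and usually need a neuropilin to bind a plexin A receptor, classes 4 to 6 are transmembrane proteins that bind plexins directly, and Sema7a is held at the membrane by a lipid anchor. Plexins are the signalling receptors, with a cytoplasmic GTPase-activating domain that acts on Ras-family GTPases and so loosens adhesion and the cytoskeleton. In the developing cortex the family is known for guiding corticofugal and commissural axons, interneuron migration and vessel growth.

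More members of the family rose than fell in the knockout, and 22 of the 30 tested had a positive estimate, beside 8873 of 18163 genes and 7214 of 14126 protein-coding genes. Of 30 members with enough counts to test, 12 were higher, 2 were lower and 16 did not pass (edgeR quasi-likelihood test, Benjamini-Hochberg adjusted p under 0.05 over all genes). The background of called genes was 12.9% higher and 9.33% lower over all 18163 genes tested, 22.2% in either direction, and 26.3% of protein-coding genes. Among 20 semaphorins 9 rose, 1 fell and 10 did not pass, with a median log2 fold change of 0.23. Among 10 tested receptors 3 rose, 1 fell and 6 did not pass, with a median of 0.08, beside -0.01 over all genes tested. The difference between semaphorins and receptors was not tested. In 6 of 30 members (5 semaphorins and Nrp2) the 2 groups of libraries did not overlap, each time with all knockout libraries above wild type. Over all 18163 genes tested 3031 (16.7%) had no overlap in either direction, 1749 of them with knockout above. Of 14126 protein-coding genes 2808 had no overlap, 1670 of them with knockout above. The share of members without overlap in either direction was thus near that of protein-coding genes. The split of calls over all genes depended on scaling, 2345 higher and 1694 lower here against 1899 and 2245 with upper-quartile scaling (22.8% called) and 1786 and 2464 when only library totals were used (23.4% called). Under both of those scalings 8 semaphorins rose and 1 fell. Among receptors 2 rose and 1 fell with upper-quartile scaling, and 1 rose and 1 fell with library totals.

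Counts of members called under the other settings are given beside the share of all genes called. Without a filter 9.34% of genes were called, with 6 semaphorins and 2 receptors higher. The title code as a block gave 22.1% of genes, 9 semaphorins and 1 receptor higher, and size class as a block gave 20.5%, 9 and 2. Without robust moderation 22.4% of genes were called, and with DESeq2 20.5%, with 9 and 11 semaphorins higher. Subsets called fewer genes: 2.85% in code 241022 and 8.96% in code 14922, where 2 and 3 semaphorins rose, with 16.4% for large and 3.56% for small libraries, where 6 and 2 rose. Leaving out knockout 1 to 5 in turn gave 22.2%, 18.3%, 18.4%, 18.3% and 20.8% of genes and 11, 7, 5, 7 and 9 semaphorins higher. Leaving out wild type 1 to 5 in turn gave 18.6%, 20.3%, 19.5%, 17.7% and 18.1% of genes and 6, 9, 8, 6 and 6 semaphorins higher.

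**Figure D1:**
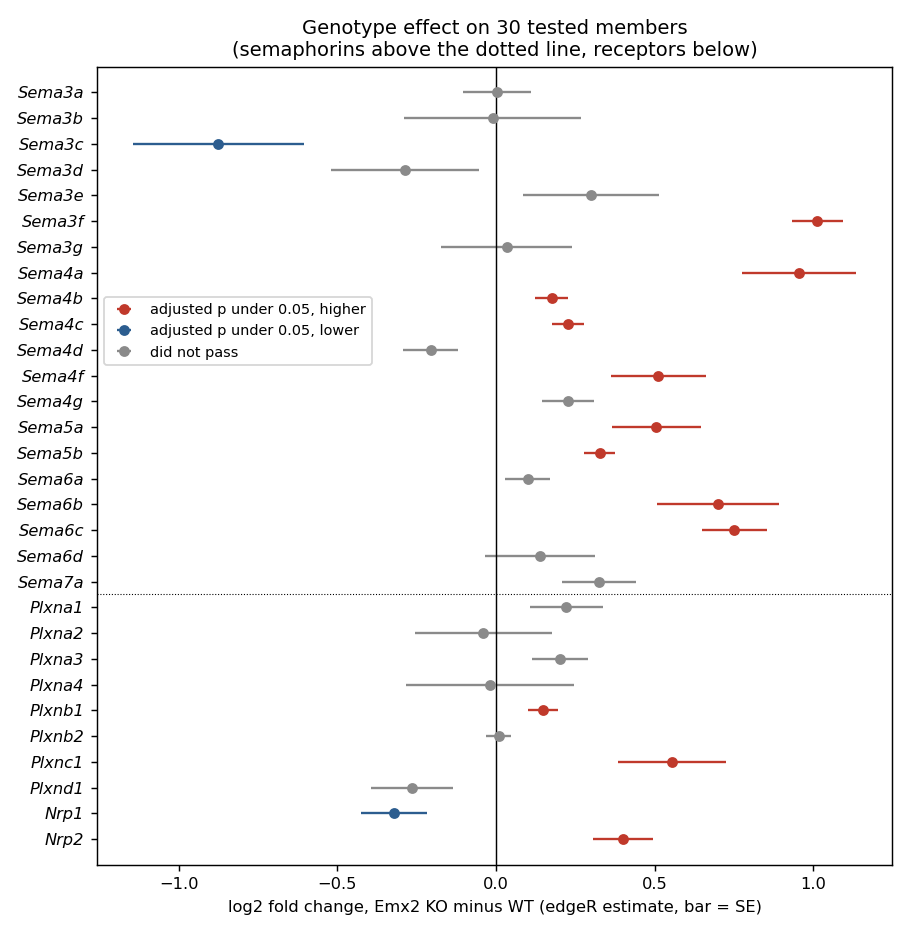
Log2 fold change of each of the 30 tested members (x axis, Emx2 KO minus WT, points are edgeR estimates and bars their SE), with semaphorins above the dotted line and receptors below. Of the points past the threshold 12 lie to the right (higher in knockout) and 2, Sema3c and Nrp1, to the left.

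Per kilobase of exon, the scale on which levels of different genes can be compared, receptors held the highest levels. In wild type Plxnb2 led with 53.4 ± 2.14 CPM per kb, followed by Plxnb1 (37.0 ± 1.18), Plxna3 (28.0 ± 3.03) and Plxna1 (23.8 ± 1.59). The highest semaphorins were Sema4c (20.4 ± 1.55 CPM per kb) and Sema5b (18.4 ± 1.01), which lay within 2 SD of each other. At the other end Sema3b, Sema3d and Sema3e stood at 0.535, 0.315 and 0.281 CPM per kb. Plxnb3, a plexin known from oligodendrocyte-lineage cells, had 1 to 7 counts per library and was not tested. Summed over the 20 genes, semaphorin levels were 156 to 179 CPM per kb in knockout libraries and 123 to 147 in wild-type libraries, without overlap. Summed receptor levels were 202 to 239 CPM per kb in knockout and 189 to 220 in wild type, with overlap. These sums weigh abundant members most and are given without a test.

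**Figure D2:**
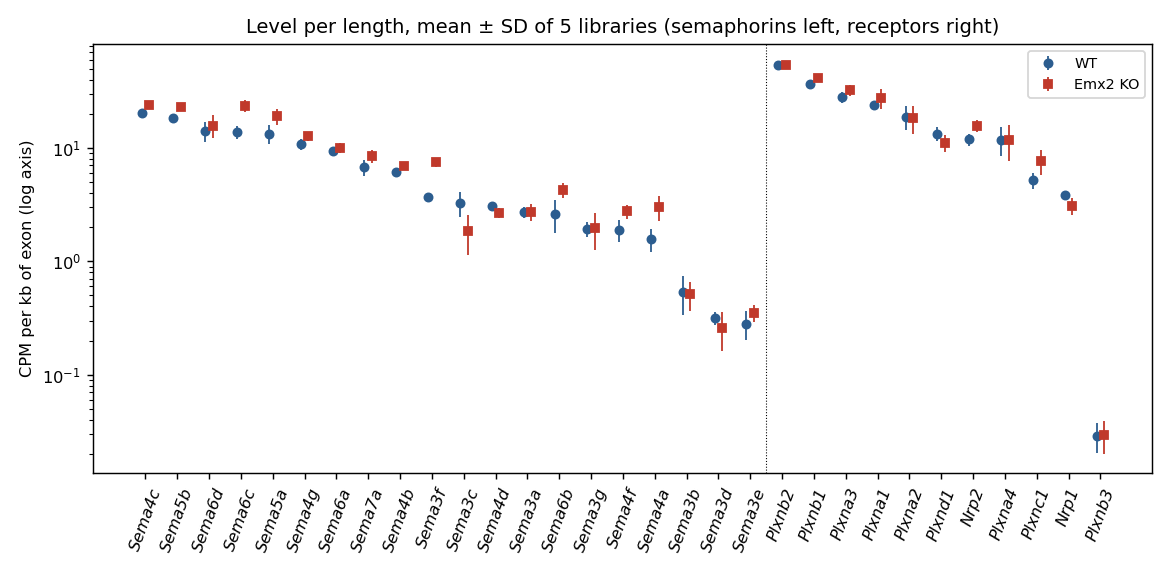
Mean level per kilobase of exon of all 31 members on a log axis (CPM per kb, bars are SD over 5 libraries; circles WT, squares Emx2 KO), ordered by wild-type level with semaphorins on the left and receptors on the right. Plxnb2 is highest and Plxnb3 lowest in both genotypes, and Sema3f, Sema4a and Sema6c show visibly separated means.

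Among the secreted class 3 semaphorins, Sema3f rose and Sema3c fell, and the other 5 did not pass. The share called was 28.6%, near the 26.3% of protein-coding genes called. Sema3f, a ligand that acts mainly through Nrp2 and repels axons and migrating cells, stood at 33.5, 37.1, 42.2, 40.2 and 40.9 CPM in knockout 1 to 5 and at 20.6, 20.3, 20.1, 16.7 and 18.4 CPM in wild type 1 to 5. Every knockout library lay well above every wild-type library, and the ranges within a genotype were narrow. The level was 2.02-fold higher in the knockout (38.8 ± 3.49 against 19.2 ± 1.66 CPM, SD, n = 5 each, log2 fold change 1.01 ± 0.08 SE, edgeR adjusted p = 7.99e-06). Large libraries alone gave a log2 fold change of 1.005 and small ones 1.07, against 0.79 and 1.17 within title codes 241022 and 14922, and Sema3f passed the threshold in each of these subsets.

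Sema3c, a ligand of both neuropilins known in vascular and axonal development, went the other way. Its levels were 7.88, 11.5, 16.6, 9.74 and 19.9 CPM in knockout 1 to 5 and 15.2, 27.3, 27.5, 28.1 and 19.1 CPM in wild type 1 to 5. Knockout 3 and 5 overlapped wild type 1 and 5, and within each title code the knockout libraries lay below the wild-type ones. Sema3c changed by a log2 fold change of -0.88 ± 0.27 (edgeR adjusted p = 0.0411), which was -1.52 among large libraries and -0.17 among small ones. The call was lost without any 1 of knockout 1, 2 or 4 or wild type 2, 3, 4 or 5 (adjusted p from 0.0531 to 0.0905), with size class as a block (adjusted p = 0.0533) and without the filter on low counts (adjusted p = 0.130). With the title code as a block it passed (-0.89, adjusted p = 0.00930). The remaining class 3 members did not pass. Sema3a, the classical collapsing factor for axons that carry Nrp1, had 37.9 ± 6.29 CPM in knockout and 37.7 ± 4.07 CPM in wild type. Sema3g, known from arterial endothelium, had 8.92 ± 3.23 and 8.79 ± 1.39 CPM. Mean levels of Sema3b, Sema3d and Sema3e lay between 2.23 and 3.28 CPM in both genotypes.

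In class 4, transmembrane ligands that mostly bind plexin B receptors, 4 of 6 rose, 0 fell and 2 did not pass. Over all genes tested 12.9% were called higher, and 2222 of 14126 protein-coding genes. Sema4a, known from immune cells and the retina, had 14.1, 16.7, 23.2, 15.2 and 12.53 CPM in knockout 1 to 5 and 8.25, 11.7, 7.95, 7.13 and 7.12 CPM in wild type 1 to 5. Knockout 3 and wild type 2 were the highest of their groups, and the groups did not overlap. Sema4a was 1.94-fold higher (log2 fold change 0.96 ± 0.18, edgeR adjusted p = 0.00275).

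Sema4c, a ligand of Plxnb2, changed less, from 93.8 ± 7.10 to 110 ± 3.45 CPM (SD, n = 5 each). Its knockout libraries held 106, 110, 109, 115 and 109 CPM, and only wild type 2 (106 CPM) reached them, the other wild-type libraries holding 89.5, 91.5, 93.5 and 88.5 CPM. This was a log2 fold change of 0.23 ± 0.05 (edgeR adjusted p = 0.00681). An opposite-strand transcript, D430040D24Rik, overlaps 7.27% of the exon length of Sema4c, and without a stated strand setting their reads cannot be told apart there. It held 1177 counts over all libraries against 21894 for Sema4c.

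Sema4f, which is found on neurons, had 12.3, 15.1, 17.8, 12.9 and 14.7 CPM in knockout 1 to 5 and 7.91, 12.49, 11.8, 10.6 and 7.53 CPM in wild type 1 to 5. The groups overlapped through wild type 2 and knockout 1 (log2 fold change 0.51 ± 0.15, edgeR adjusted p = 0.0282). The call was lost without any 1 of knockout 2 or 3 or wild type 1, 4 or 5 (adjusted p from 0.0537 to 0.0630). Sema4b had 38.7, 40.5, 39.7, 40.7 and 35.9 CPM in knockout 1 to 5 and 33.2, 33.9, 35.1, 34.2 and 36.7 CPM in wild type 1 to 5, a log2 fold change of 0.18 ± 0.05 (adjusted p = 0.0284). Only knockout 5 and wild type 5 overlapped. The Sema4b call was lost without any 1 of knockout 2, 3 or 4 or wild type 1, 2, 3 or 4 (adjusted p from 0.0572 to 0.0774), with upper-quartile scaling (0.0678), with total counts alone (0.0884) and without the filter on low counts (0.0804). Sema4g (log2 fold change 0.23, adjusted p = 0.0657) and Sema4d, the CD100 antigen of lymphocytes and a Plxnb1 ligand (-0.21, adjusted p = 0.116), did not pass.

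Both class 5 semaphorins rose, beside 12.9% of all genes tested called higher. These are transmembrane proteins with thrombospondin repeats, and Sema5a and Sema5b are known as cues for retinal and corticofugal axons. The 250 bases before the annotated start site are shown for both because they are the 1 subclass of semaphorins in which every member rose, from RefSeq promoters of build GRCm38.p6, 5′ to 3′ on the plus strand, at chr15:32244563-32244812 for Sema5a and chr16:35541112-35541361 for Sema5b. Capitals would mark a match to either motif searched, and these stretches hold none.
Sema5a: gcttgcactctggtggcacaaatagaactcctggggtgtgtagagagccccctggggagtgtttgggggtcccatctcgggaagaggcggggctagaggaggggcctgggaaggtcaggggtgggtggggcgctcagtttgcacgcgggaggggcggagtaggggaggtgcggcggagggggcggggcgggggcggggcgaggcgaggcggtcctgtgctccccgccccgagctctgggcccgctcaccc
Sema5b: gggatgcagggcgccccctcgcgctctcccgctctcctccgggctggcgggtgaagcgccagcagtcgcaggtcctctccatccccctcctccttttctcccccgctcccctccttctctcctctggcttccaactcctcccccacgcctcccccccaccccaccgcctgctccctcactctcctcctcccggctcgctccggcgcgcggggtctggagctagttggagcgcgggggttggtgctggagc
Both stretches are rich in G and C (72% each) and hold 17 and 19 CpG dinucleotides.

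Sema5b held 153, 174, 161, 170 and 161 CPM in knockout 1 to 5 and 134, 118, 132, 134 and 133 CPM in wild type 1 to 5. The groups did not overlap, and wild type 2 was the lowest library. The level was 1.25-fold higher in the knockout (log2 fold change 0.33 ± 0.05, edgeR adjusted p = 0.000480), with 0.31 for large and 0.33 for small libraries. Sema5a held 311, 332, 354, 330 and 454 CPM in knockout 1 to 5 and 219, 218, 296, 310 and 209 CPM in wild type 1 to 5. Its groups nearly touched, with 310.8 CPM in the lowest knockout and 310.1 CPM in the highest wild-type library. Sema5a rose by 0.51 ± 0.14 on the log2 scale (edgeR adjusted p = 0.0277), with 0.10 for large libraries and 0.91 for small ones. The call was lost without any 1 of knockout 3 or wild type 1, 2 or 5 (adjusted p from 0.0573 to 0.0640), in the large libraries alone (0.258) and without the filter on low counts (0.106). It was also lost in title code 14922 alone (0.130). With the title code as a block Sema5a passed (0.52, edgeR adjusted p = 0.000587).

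**Figure D3:**
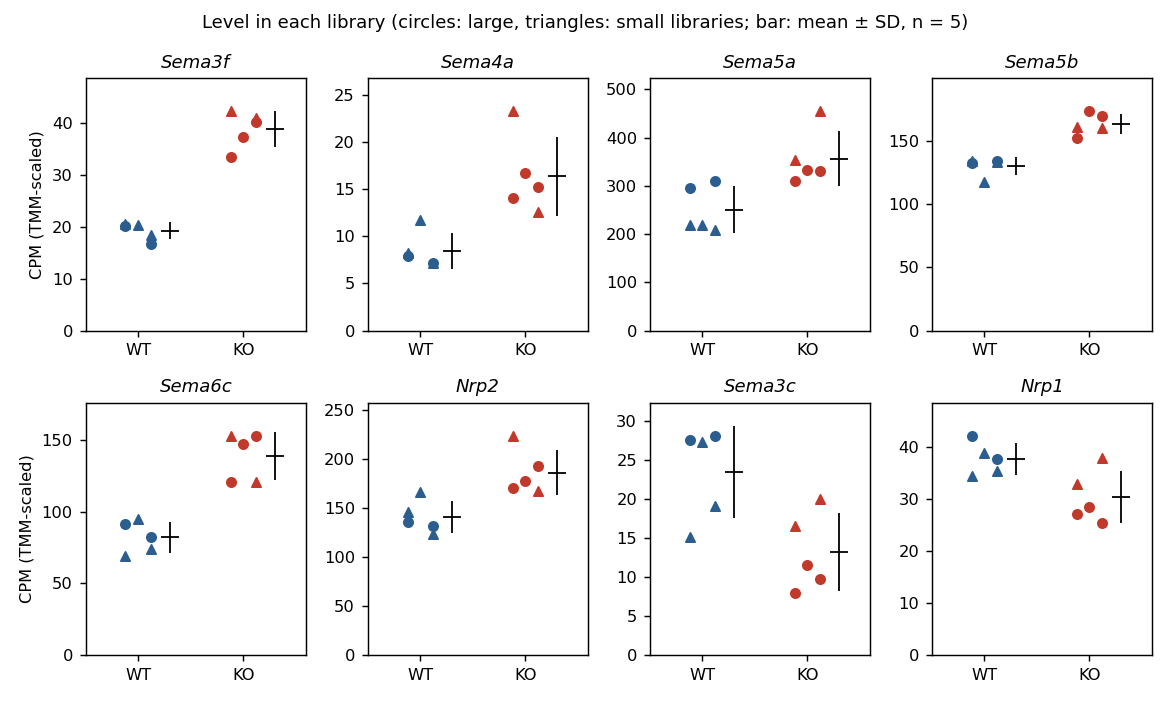
Level of 8 members in each library (y axis, TMM-scaled CPM from 0; circles large and triangles small libraries; bars mean ± SD, n = 5 per genotype). All knockout libraries lie above all wild-type libraries for Sema3f, Sema4a, Sema5a, Sema5b, Sema6c and Nrp2, while Sema3c and Nrp1 are lower in the knockout with overlapping groups.

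Class 6 semaphorins are transmembrane ligands of plexin A receptors, and 2 of 4 rose while 0 fell, beside 12.9% of all genes tested called higher. Sema6c had 121, 147, 153, 153 and 121 CPM in knockout 1 to 5 and 69.5, 94.7, 91.2, 82.3 and 74.1 CPM in wild type 1 to 5. The lowest knockout library lay above the highest wild-type library, and the level was 1.68-fold higher (log2 fold change 0.75 ± 0.10, edgeR adjusted p = 0.000421). Sema6b had 13.6, 17.6, 20.6, 17.8 and 15.1 CPM in knockout 1 to 5 and 7.83, 15.6, 11.8, 8.02 and 8.65 CPM in wild type 1 to 5. Wild type 2 overlapped the knockout range, as in Sema4f. Sema6b rose by 0.70 ± 0.19 on the log2 scale (edgeR adjusted p = 0.0226), and the call was lost without any 1 of knockout 3 or 4 or wild type 4 or 5 (adjusted p from 0.0505 to 0.0576) and without the filter on low counts (0.0596).

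Sema6a, known from boundary-cap and granule cell migration, did not pass (88.3 ± 8.88 CPM in knockout, 82.5 ± 5.88 CPM in wild type). Sema6d, a Plxna1 ligand, did not pass either (167 ± 37.9 and 150 ± 30.3 CPM). The only class 7 member, Sema7a, which promotes axon growth through integrins, had 28.1 ± 3.63 and 22.2 ± 3.62 CPM (log2 fold change 0.33, adjusted p = 0.0668). Sema7a and Sema4g passed when knockout 1 (adjusted p = 0.0288 and 0.0221) or wild type 2 (0.0319 and 0.0164) was left out and with DESeq2 (0.0408 and 0.0434).

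The 2 neuropilins, coreceptors that bind secreted semaphorins and vascular endothelial growth factors, changed in opposite directions. Nrp2 had 170, 177, 224, 193 and 167 CPM in knockout 1 to 5 and 146, 167, 136, 131 and 124 CPM in wild type 1 to 5. The groups met at 166.9 CPM in knockout 5 and 166.7 CPM in wild type 2 without overlapping. Nrp2 rose by a log2 fold change of 0.40 ± 0.09 (1.32-fold, edgeR adjusted p = 0.0109), with 0.43 for large and 0.42 for small libraries. Within title code 241022 alone it was 0.15 (adjusted p = 0.422), and within 14922 it was 0.54 (adjusted p = 0.108).

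Nrp1, which serves Sema3a and is also an endothelial receptor, had 27.0, 28.4, 32.7, 25.4 and 37.9 CPM in knockout 1 to 5 and 34.3, 38.7, 42.1, 37.6 and 35.3 CPM in wild type 1 to 5. Only knockout 5 reached into the wild-type range. Nrp1 fell by 0.32 on the log2 scale (SE 0.10, edgeR adjusted p = 0.0414), with a log2 fold change of -0.56 for large and -0.03 for small libraries. The call was lost without any 1 of knockout 1, 2 or 4 or wild type 2, 3, 4 or 5 (adjusted p from 0.0544 to 0.0936) and with size class as a block (0.0503). It was also lost in title codes 241022 and 14922 alone (0.127 and 0.333). With the title code as a block Nrp1 passed (-0.32, edgeR adjusted p = 0.0112). Markers of endothelium summed to 163 to 303 CPM in knockout and 195 to 268 CPM in wild type, with 0 of 12 past the edgeR threshold, 3 at an unadjusted p under 0.05 and 10 with a negative estimate. Their part in the Nrp1 result was not tested, and in bulk tissue fewer cells of a type and less RNA per cell cannot be told apart.

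The upstream sequence of Nrp2 is shown because it was the only member window with a match to either motif searched. Both strands of the RefSeq windows (250 bases before to 50 after each start, build GRCm38.p6) were searched for TAATTA, a homeodomain core, and CTTTGAT, a TCF/LEF motif. Windows were found for 26 of 31 members, 37 windows in all. TAATTA was in 0 of these 37 and in 5.29% of 32851 windows of all genes, and CTTTGAT in 1 of 37 and in 3.73% of all windows. The match in Nrp2 (capitals) begins 146 bases before the start site, within chr1:62703067-62703316 on the plus strand.
Nrp2: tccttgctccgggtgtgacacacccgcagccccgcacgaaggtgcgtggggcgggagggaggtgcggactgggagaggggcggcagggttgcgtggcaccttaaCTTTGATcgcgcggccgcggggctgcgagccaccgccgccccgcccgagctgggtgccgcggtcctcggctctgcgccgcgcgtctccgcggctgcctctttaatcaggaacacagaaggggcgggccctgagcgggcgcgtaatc
Member windows had a median of 63.7% G and C and 15 CpG dinucleotides, against 52.7% and 7 in all windows. A match of letters is a description of the sequence and not a binding site.

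Among plexins 2 of 8 tested rose and 0 fell, a share near the 22.2% of all genes and 26.3% of protein-coding genes called. Plxnc1, a receptor for Sema7a, had 46.7, 68.8, 89.0, 62.0 and 53.9 CPM in knockout 1 to 5 and 37.8, 54.6, 45.0, 42.9 and 36.7 CPM in wild type 1 to 5. Knockout 3 and wild type 2 were the highest of their groups, and wild type 2 overlapped the knockout range. Plxnc1 was 1.47-fold higher (log2 fold change 0.55 ± 0.17, edgeR adjusted p = 0.0408). Leaving out any 1 of knockout 2, 3 or 4 or wild type 1, 3, 4 or 5 ended this call (adjusted p from 0.0598 to 0.0909), as did total counts alone (0.0536), the fit without a filter (0.126) and the title code as a block (0.0678).

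Plxnb1, the Sema4d receptor, had 360, 427, 408, 391 and 381 CPM in knockout 1 to 5 and 351, 345, 373, 348 and 358 CPM in wild type 1 to 5. The increase was small (1.11-fold), with knockout 1 inside the wild-type range (log2 fold change 0.15 ± 0.05, edgeR adjusted p = 0.0397). It was lost without any 1 of knockout 2, 3 or 4 or wild type 1, 2, 4 or 5 (adjusted p from 0.0583 to 0.103), with upper-quartile scaling (0.0964), total counts alone (0.137), the title code as a block (0.0572) and size class as a block (0.0594). Plxnb2, the most abundant member per length, had 427, 414, 397, 428 and 405 CPM in knockout 1 to 5 and 401, 407, 402, 410 and 441 CPM in wild type 1 to 5. Its groups lay over each other (log2 fold change 0.01 ± 0.04). Plxnd1, the endothelial Sema3e receptor, did not pass (81.4 ± 14.2 against 97.7 ± 13.9 CPM, log2 fold change -0.26 ± 0.13, adjusted p = 0.181).

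All 4 plexin A genes, which signal for secreted semaphorins with neuropilins and for class 6 ligands, failed to pass. Plxna1 had 252 ± 50.4 CPM in knockout and 216 ± 14.4 CPM in wild type, and knockout 3 (339 CPM) stood above the rest. Opposite-strand transcripts overlap 10.7% of the exon length of Plxna1 and 2.68% of that of Plxnb1. Plxna3 had 254 ± 27.1 and 220 ± 23.9 CPM (log2 fold change 0.20, adjusted p = 0.133), and passed without knockout 1 (0.26, adjusted p = 0.0234). Plxna2 and Plxna4 had the widest spread of the plexin A genes relative to their means. Plxna2 held 224, 278, 349, 275 and 444 CPM in knockout 1 to 5 and 230, 362, 389, 382 and 246 CPM in wild type 1 to 5. Plxna4 held 122, 137, 152, 149 and 267 CPM in knockout 1 to 5 and 117, 199, 208, 196 and 112 CPM in wild type 1 to 5.

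In Plxna2 and Plxna4 the comparison had opposite signs in large and small libraries. Plxna2 gave a log2 fold change of -0.57 among large libraries (edgeR adjusted p = 0.00418) and 0.50 among small ones (adjusted p = 0.310). Plxna4 gave -0.57 among large libraries (adjusted p = 0.00189) and 0.55 among small ones (adjusted p = 0.512). Tested as a difference between the classes, Plxna2 gave 1.08 ± 0.28 (unadjusted p = 0.00547, edgeR adjusted p = 0.354) and Plxna4 1.12 ± 0.44 (unadjusted p = 0.0372, edgeR adjusted p = 0.493), so neither passed. This interaction test called 7 of all genes tested (0.0385%) and 0 of 30 members, 5 of which had an unadjusted p under 0.05.

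The same libraries stood high in several members. For Plxna2 the 5 highest libraries were knockout 3 and 5 and wild type 2, 3 and 4, and for Plxna4 and Sema3c these 5 were also the highest except that wild type 5 exceeded knockout 3 in Sema3c. Knockout 3 and 5 and wild type 3 and 4 share title code 14922. Knockout 5 was also the highest library for Sema6d (233 CPM, the next knockout library 162 CPM). For Sema5a the smallest adjusted p of the interaction among members was found, 0.0703, with a difference of 0.81 ± 0.12 between the classes. Since no title code holds both genotypes at 1 library size, code and genotype cannot be told apart inside a size class. Code 14922 holds the small knockout and the large wild-type libraries, so the interaction cannot be told apart from a level particular to that code. With the title code as a block the log2 fold change was -0.05 for Plxna2, -0.01 for Plxna4 and 0.52 for Sema5a.

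**Figure D4:**
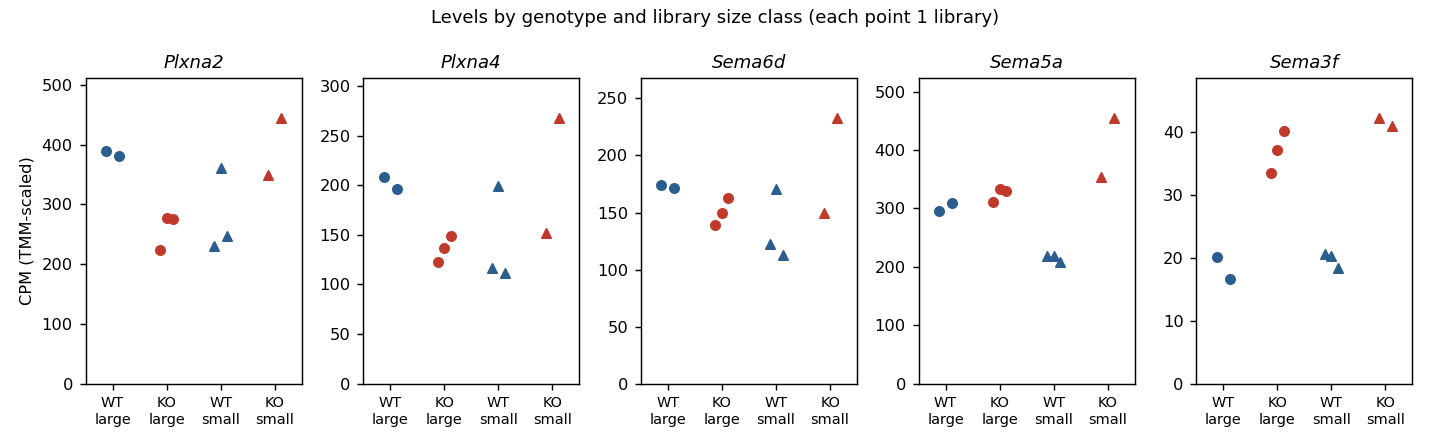
Levels of Plxna2, Plxna4, Sema6d, Sema5a and Sema3f by genotype and library size class (y axis, TMM-scaled CPM from 0; 1 point per library). For Plxna2 and Plxna4 the large knockout libraries lie below the large wild-type libraries, whereas for Sema3f knockout lies above wild type in both classes.

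Other genes of semaphorin signalling moved in both directions. Of 59 tested genes from 4 lists of partner receptors and cytoplasmic effectors, 20 rose, 7 fell and 32 did not pass, with a median log2 fold change of 0.09. The share called was 45.8%, beside 22.2% over all genes and 26.3% over protein-coding genes. Of 5 collapsin response mediator proteins, which carry semaphorin signals to microtubules, 3 rose (60%), 0 fell and 2 did not pass. Crmp1 rose from 190 ± 39.9 to 301 ± 34.9 CPM (0.66 ± 0.13, edgeR adjusted p = 0.00533), Dpysl5 by 0.48 ± 0.08 and Dpysl2 by 0.33 ± 0.06 on the log2 scale.

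Of 20 GTPases and regulators used by plexins 6 rose, 3 fell and 11 did not pass. The share called was 45%, beside 22.2% over all genes and 26.3% over protein-coding genes. Rnd1, a GTPase that binds plexins and promotes their activity, held 2.68 ± 0.353 CPM in knockout and 7.47 ± 1.25 CPM in wild type (-1.49 ± 0.15 on the log2 scale, edgeR adjusted p = 3.3e-05), the largest change of these lists. Its relative Rnd3 rose from 176 ± 8.57 to 239 ± 16.2 CPM (0.44 ± 0.05), as did the exchange factor gene Tiam1 (0.33 ± 0.05) and Rac1 (0.20 ± 0.03). Of 19 MICAL oxidoreductases, kinases and adaptors 10 rose, 1 fell and 8 did not pass, a share called of 57.9%. Limk1, a kinase that acts on cofilin, rose by 0.41 ± 0.06, Pak1 by 0.36 ± 0.06, Mical3 by 0.31 ± 0.06 and Gipc1, an adaptor that binds the tail of neuropilin, by 0.28 ± 0.05 on the log2 scale.

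Of 15 tested coreceptors and partner ligands 1 rose, 3 fell and 11 did not pass. The share called was 26.7%, near the 26.3% of protein-coding genes called. Nrcam, an adhesion molecule that joins Nrp2 in receptor complexes, rose from 72.5 ± 13.9 CPM in wild type to 125 ± 13.2 CPM in knockout (0.77 ± 0.13, edgeR adjusted p = 0.00170). Vegfc, a ligand that also binds Nrp2, fell from 11.1 ± 1.18 to 6.56 ± 0.991 CPM (-0.74 ± 0.12, adjusted p = 0.000826). The integrin genes Itga1 (-0.52 ± 0.12) and Itgb1 (-0.18 ± 0.04) fell too.

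Marker genes of several cell types differed between the same libraries. Summed levels of 10 radial glia markers were 3463 to 3898 CPM in knockout and 3021 to 3116 CPM in wild type, and those of 10 intermediate progenitor markers 1515 to 1827 and 1202 to 1442 CPM, without overlap. Of the 10 radial glia markers 7 were called higher, beside 22.2% of all genes called in either direction. Prom1 was called lower (log2 fold change -0.25, edgeR adjusted p = 0.0106), and Vim and Hes1 did not pass. Sums were lower in every knockout library than in any wild-type library for choroid plexus (58.4 to 94.0 against 256 to 312 CPM) and hem markers (103 to 232 against 315 to 482 CPM). The same held for the sum of Cajal-Retzius markers (299 to 341 against 452 to 504 CPM). Of these 10 markers 5 were called lower and 3 did not pass. Calb2 (log2 fold change 0.72, edgeR adjusted p = 0.0037) and Ndnf (0.76, adjusted p = 0.0028) were called higher. The summed levels of 10 cortical neuron markers overlapped (3987 to 5140 in knockout and 2914 to 4379 CPM in wild type). Of these markers 4 (Tubb3, Dcx, Stmn2 and Bcl11b) were called higher, 1 (Sox5) was called lower and 5 did not pass. Sums also overlapped for markers of meninges and mesenchyme (648 to 905 in knockout, 660 to 914 CPM in wild type), microglia and macrophages (62.1 to 81.8, 68.5 to 88.1) and blood (2388 to 7599, 2306 to 5631). Those of diencephalon and thalamic eminence, where 6 of 10 genes had enough counts to test, were 105 to 176 and 115 to 203 CPM. Subpallial and GABAergic markers summed to 390, 535, 731, 369 and 207 CPM in knockout 1 to 5 and 105, 315, 168, 138 and 127 CPM in wild type 1 to 5. Of 11 tested markers of this list 6 were called higher, 0 lower and 5 did not pass, with a median log2 fold change of 1.75. Knockout 3 and wild type 2, the highest libraries of their groups in both subpallial and cortical neuron markers, were also the highest for 8 of 31 members, the called Sema4a, Sema4f, Sema6b, Sema6c, Nrp2 and Plxnc1 and the uncalled Sema4d and Sema4g. The share of all genes with the same 2 highest libraries was not counted, so the 8 of 31 have no background to be read against. The part of any of the cell types above in the semaphorin and receptor results was not tested.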

How the data were processed

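RNA-seq read counts per Ensembl gene came from 10 libraries of mouse cortex (5 Emx2 KO, 5 WT). The deposited values are raw counts, not normalized, and the submitters' processing notes name STAR 2.7.8a, featureCounts 1.6.3-p1 and bcl2fastq 2.20, beside the builds GRCm39 and rn6 (a rat build whose role they do not give). Parameters, strand setting and annotation release are not given in the sources used here. Symbols came from a reference table of gene identifiers and names (52073 of 56748 had a symbol). Biotypes, summed exon lengths and exon overlaps between genes came from GENCODE M21 (GRCm38), and no position from it is printed.

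Chi-square per gene was 9.06 to 23.7 over the 20 pairs of libraries of 1 genotype, above what sampling alone gives, so none was merged. Genes were filtered with filterByExpr (minimum count 10), scaled by TMM and tested with edgeR 4.0.16 (R 4.3.3, quasi-likelihood F test, robust moderation, two-sided, with genotype alone in the model), and p-values were Benjamini-Hochberg adjusted over 18163 genes. SEs were derived from the F statistic. CPM used TMM-scaled totals. The procedure was tested on simulated data. Alternatives were DESeq2 1.42.0, other scalings and filters, title code or size class as a block or alone, each library left out, and, chosen after the data were seen, no robust moderation. Size classes were split at 20000000 counts.

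The members and lists were chosen with earlier results of these data known, and 1 gene of the marker lists was left out of the sums and is not reported here. Values in every library were given for the 12 members past the threshold with the smallest p and for the most abundant ligand and receptor per length. They were also given for Sema3c, Nrp1, Plxna2 and Plxna4, picked after their values were seen. Up to 4 genes past the threshold with the smallest p were named from each pathway list.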

Additional observations from a re-analysis of the deposited data

Results flagged for a closer look

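In 10 of 62 groups of 5 libraries (31 members, 2 genotypes) 1 library stood apart, its gap to the next library taking more than 0.71 of the range of the group. Chance flags about 1 in 20 such groups. In knockout, library 5 was the highest for Plxna4 (ratio 0.797, 267 CPM against 152 in the next) and Sema6d (0.748, 233 against 162), library 3 the highest for Plxna1 (0.745, 339 against 245), and library 1 the highest for Sema3g (0.739, 14.5 against 8.59) and the lowest for Plxna3 (0.743, 207 against 259). Knockout 1 was also the highest knockout library in summed markers of endothelium (303 CPM), blood (7599), meninges and mesenchyme (905) and microglia and macrophages (81.8). The same held for hem (232), Cajal-Retzius (341) and radial glia markers (3898), while it was the lowest for cortical neuron markers (3987). The part of these cell types in the flagged values was not tested.

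In wild type, library 2 was the lowest for Sema5b (0.879, 118 against 132 CPM) and the highest for Sema4a (0.754, 11.7 against 8.25) and Sema4c (0.717, 106 against 93.5). Library 5 was the highest for Plxnb2 (0.758, 441 against 410) and the lowest for Sema3e (0.713, 1.32 against 2.69 CPM).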

How the results depend on the processing

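Across 22 alternatives 0 of the 14 called members changed direction. Sema3f kept its call in all 22. With single libraries left out, 6 members kept theirs (Sema3f, Sema4a, Sema4c, Sema5b, Sema6c, Nrp2) and 8 lost it at least once. The counts of members called were unchanged without robust moderation.

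Semaphorins called higher numbered 9, and 2 with title code 241022 alone, 3 with 14922 alone and 2 in the small libraries alone (5 to 11 with 1 library left out, the lowest without knockout 3). The 1 called lower became 0 without a filter, with size class as a block, with code 241022 alone and in the small libraries alone (0 to 1 with 1 library left out). Receptors called higher numbered 3, and 1 with library totals alone, 1 with the title code as a replicate block, and 0 with either code alone or in the small libraries alone (1 to 4 with 1 library left out, 1 without knockout 2, 3 or 4 or wild type 1, 4 or 5). The 1 called lower became 0 with size class as a block, with either code alone and in the small libraries alone, and 3 in the large libraries alone (0 to 1 with 1 library left out). Pathway genes called higher numbered 20, and 1 with code 241022, 8 with 14922 and 3 in the small libraries (15 to 21 with 1 library left out). Those called lower numbered 7, and 2 in each of these (6 to 8 with 1 library left out). Single codes and size classes hold 4 or 5 libraries. Among the 14 called members the title code as a replicate block ended the calls of Plxnb1 and Plxnc1, given above, and it left 18 pathway genes higher and 9 lower.

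The sign reversed in 8 members that were not called. Log2 fold changes with code 14922 alone were 0.037 for Plxna2, 0.0498 for Plxna4, -0.0228 for Plxnb2 and -0.36 for Sema3g. In the small libraries they were 0.50, 0.55, -0.0535 and -0.39 for the same genes and -0.0389 for Sema6a. With code 241022 alone they were -0.14 for Sema3a, 0.25 for Sema3b and -0.0229 for Sema6d, and in the large libraries -0.13, 0.43 and -0.21. Upper-quartile scaling gave -0.0277 for Plxnb2, -0.0333 for Sema3a and -5e-04 for Sema3g, library totals alone -0.0387, -0.0442 and -0.0131, and RLE factors -0.0011 for Sema3a. Sema3g was -0.0039 with the title code as a replicate block and -0.0403 with size class as a block. With 1 library left out the ranges were -0.20 to 0.0553 for Plxna2, -0.26 to 0.0695 for Plxna4, -0.0085 to 0.0358 for Plxnb2, -0.10 to 0.0484 for Sema3a, -0.15 to 0.16 for Sema3b, -0.23 to 0.12 for Sema3g and -0.0108 to 0.19 for Sema6d. The cause was not tested. Sema3b, Sema3d, Sema3e and Plxnb3 had few counts, which limits their precision.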
